A study of Rattus norvegicus with 8 samples.

Results

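Collagens, laminins and integrins form and read the extracellular matrix. The genes described here are those whose name on the array was a collagen chain, a laminin chain or an integrin subunit, taken by their names alone, with Itgam, Itgal, Itga4, Itgb1 and Itgb2 set aside. They were 61 of 35199 gene names on the array, read by 101 of 43379 non-control spots: 33 collagens, 8 laminins, 17 integrin subunits, and 3 further names that begin as integrin names do but encode other proteins (Itgb1bp1, Itgb1bp2 and Itgb3bp), which were counted apart. Spots counted as valid in a rat if the foreground reached 2 times the local background, and quantified genes are those with 1 or more spots that were valid in every one of the 8 rats. This held for 48 of the 61 genes. The other 13, Col4a3, Col6a6, Col12a1, Col14a1, Col22a1, Col24a1, Itga2, Itga8, Itga10, Itgb3, Itgb7, Itgb8 and Itgb1bp2, had no spot valid in all 8 rats and received no difference. Lama4, Lamb1 and Itgav were not among the names found by this search.

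Total RNA came from the dentate gyrus (DG) of adult female Sprague-Dawley rats of 150 to 200 g that had been ovariectomized (OVX) and underwent status epilepticus (SE), a continuous seizure, induced by kainic acid at 16 mg/kg and stopped with pentobarbital after 5 h. The 4 COS rats had received oil and the 4 CES rats 17β-estradiol (E2) in the form of its benzoate (EB). According to the records, EB was given as 4 doses of 2 µg, 24 h apart. Ovariectomy, kainic acid and SE were thus common to both groups, and no rat without SE was analysed here. The study's methods give another kainic acid dose, another drug to stop SE and other times of tissue collection than the records do. They also differ from the records in the order of the estradiol doses. The order of the EB doses and the time between SE and tissue collection are therefore uncertain here. Each of 4 arrays on 1 slide held 2 rats of the same group, 1 labeled with Cy3 (replicates 1 and 3) and 1 with Cy5 (replicates 2 and 4).

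As background, network-forming collagen IV and the laminins build basement membranes, in the brain mainly around blood vessels and under the pia. Fibril-forming collagens belong to the vessel wall and the meninges, and little fibrillar collagen lies among neurons. Integrins are receptors made of an α and a β subunit that bind collagens, laminins or fibronectin outside the cell and, through talin, kindlin and related adaptors, the actin cytoskeleton inside it. The level of a gene is given as the log2 of its background-subtracted signal over the median signal of the rat's channel, so that 0 is the median spot, and a difference is the CES mean minus the COS mean of these levels.

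Some of the readings below turn on single probes, so several probes are shown first, as the array prints them, with the positions that the files give for the rn4 assembly. The pair for Col4a1, the α1 chain of collagen IV, lay 112137 bases apart on chr16 and gave opposite readings. The upstream one was at chr16:83045409-83045468 and the downstream one at chr16:83157546-83157605, both on the plus strand. The probe of Col4a2, its partner chain, was at chr16:82900301-82900360 on the minus strand.
Col4a1 upstream: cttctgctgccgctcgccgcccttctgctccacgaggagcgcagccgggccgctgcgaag
Col4a1 downstream: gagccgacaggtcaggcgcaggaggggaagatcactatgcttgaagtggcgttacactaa
Col4a2: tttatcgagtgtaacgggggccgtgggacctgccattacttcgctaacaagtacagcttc

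The following probes belong to Itga5, Lamc1 and Col7a1, the genes with the 3 largest falls, and to Col18a1, whose probes overlap. The Itga5 probe shown is the second for that gene, which did not enter the gene's difference, while the probe that did is given below by its position. The second probe spans chr7:142256592-142258568 on the minus strand, a range longer than the probe, as for a sequence that crosses an intron. The Lamc1 probe shown spans chr13:68251375-68252423 on the minus strand in the same way. The Col7a1 probe lay at chr8:114002273-114002332 on the plus strand. The pair for Col18a1 shares 37 bases, in capitals, so their readings are not independent, and it lay at chr20:11981417-11981476 and chr20:11981394-11981453 on the plus strand.
Itga5 second probe: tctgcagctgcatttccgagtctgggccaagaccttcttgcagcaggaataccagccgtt
Lamc1 second probe: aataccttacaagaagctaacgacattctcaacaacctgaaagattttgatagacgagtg
Col7a1: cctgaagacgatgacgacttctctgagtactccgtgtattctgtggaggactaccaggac
Col18a1 first probe: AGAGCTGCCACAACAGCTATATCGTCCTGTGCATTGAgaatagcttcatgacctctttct
Col18a1 second probe: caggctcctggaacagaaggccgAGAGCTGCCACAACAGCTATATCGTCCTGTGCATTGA

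Col4a1 and Col4a2 are also neighbours that are transcribed away from each other. In RefSeq's GRCr8 table their start sites lay 77 bases apart, and their promoter windows shared the 176 bases at chr16:84885471-84885646. The shared stretch is shown on the plus strand, with CCAAT boxes (CCAAT or, on the other strand, ATTGG) and GC boxes (GGGCGG or CCGCCC) in capitals, 1 of the former and 2 of the latter, which do not overlap each other.
Col4a1 and Col4a2 shared promoter: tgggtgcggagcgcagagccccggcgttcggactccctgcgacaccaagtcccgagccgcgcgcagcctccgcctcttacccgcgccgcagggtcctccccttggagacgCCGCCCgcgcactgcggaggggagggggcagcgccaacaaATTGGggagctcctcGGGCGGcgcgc

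A CCAAT box on either strand was found in 37.5% and a GC box in 33.1% of all 33469 promoter windows, and in 13 and 29 of the 49 promoters matched to the 61 genes by symbol. Of the 19 promoters of genes called lower below, 5 held a CCAAT box and 12 a GC box. A match is a description of letters and no evidence of binding.

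The comparison asked how E2 replacement changed the matrix and adhesion genes of the DG after SE. CES rats had lower levels than COS rats for most of them. limma called 23 of the 48 quantified genes lower in CES and 1, Col11a2, higher, at a Benjamini-Hochberg adjusted p under 0.05 over all 21332 quantified genes. The lower calls were 47.9% of these genes, against 28.3% of all genes called lower and 5.80% called higher. By family, 14 of 27 collagens, 4 of 8 laminins, 4 of 11 integrin subunits and, apart, 1 of 2 other proteins were called lower. Every CES rat lay below every COS rat for 15 of the 48 genes, against 19.8% of all genes, and every CES rat lay above for 0 of the 48, against 1.61% of all genes.

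The whole array shifted too, and the size of that shift depends on the scaling. The median difference of all genes was -0.25, and that of the 48 genes was -0.59, or -0.33 relative to all genes. Relative medians were -0.52 for the collagens, -0.42 for the laminins and -0.18 for the integrin subunits. After loess within and Aquantile between arrays, the median of all genes moved to 0.08, while the relative medians of the families were -0.57, -0.45 and -0.19. The calls moved with that shift: 5 of the 48 genes (Col4a2, Col7a1, Lamc1, Itga5 and Itga9) remained called lower and 4 (Col4a5, Col9a2, Col11a2 and Lama2) were called higher, against 8.64% and 14.8% of all genes. The counts also rested on single rats. Without COS replicate 3 only Itga5 and Lamc1 of the 48 stayed called lower, while the calls over all genes fell to 914 lower and 257 higher. Without CES replicate 1 there were 9, without COS replicate 1 14 and without COS replicate 2 15. The lower calls over all 21332 genes fell as well, to 2463, 3634 and 3979 in the same order.

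Before loess, brighter genes were called more often. Of the 24 genes with a mean level of at least 0 over the 8 rats, 17 were called lower, or 70.8%, against 33.4% of the 12795 genes of such a level on the array. Of the 24 below 0, 6 were called lower, or 25.0%, against 20.6% of 8537. After loess, 2 of the 24 brighter and 3 of the 24 dimmer genes were called lower, and 2 of either were called higher. The shares of all genes after loess were 8.64% lower and 14.8% higher. Within the Cy3 rats 40 and within the Cy5 rats 39 of the 48 differences were below 0, with 2 rats of each group in either dye. The share of all genes below 0 within a dye was not taken. Since the median of all genes over both dyes was -0.25, part of these counts goes with the shift of the whole array.

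**Figure D1:**
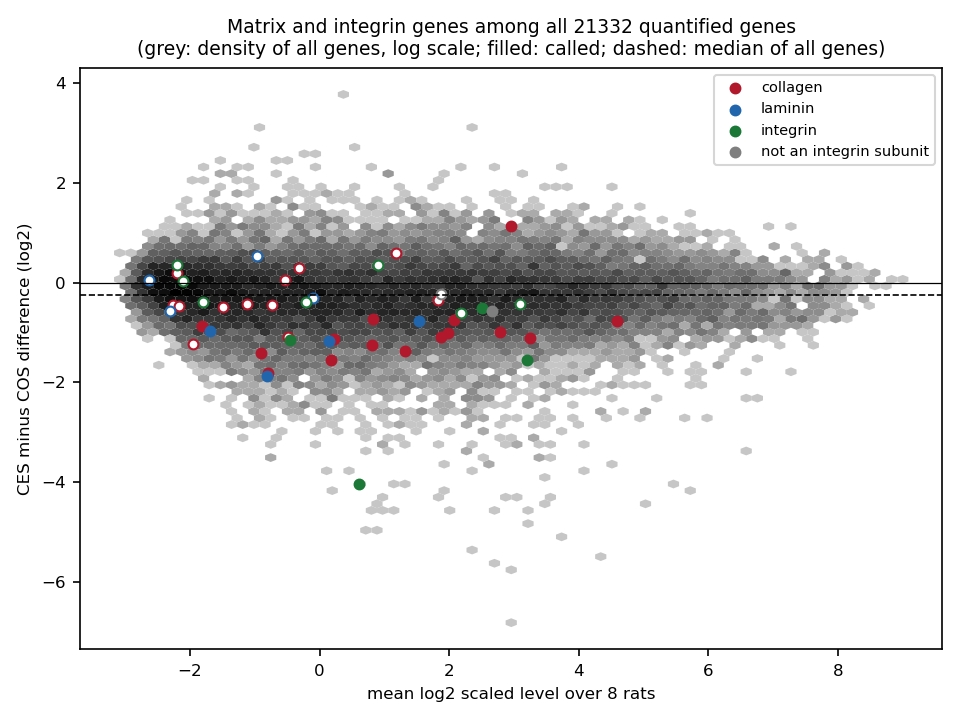
Difference between CES and COS (log2, vertical) against mean level over 8 rats (log2, horizontal) for all 21332 genes (grey density) and the 48 quantified matrix and integrin genes (colored by family, filled where called). Filled points gather below the dashed line at -0.25, the median of all genes, with Itga5 lowest and Col11a2 the single filled point above 0.

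Col4a1 and Col4a2 wind together, 2 α1 chains with 1 α2 chain, into the collagen IV of most basement membranes. The Col4a2 level was 2.19, 2.22, 2.09 and 1.49 in COS replicates 1 to 4 and 0.81, 1.34, 0.46 and -0.08 in CES replicates 1 to 4. All 4 CES rats lay below all COS rats, and the difference was -1.37 ± 0.30 (SE), 2.58-fold lower (adjusted p = 0.00931). It was also called after loess (-0.98).

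The mean of both Col4a1 probes was 5.15, 5.03, 5.16 and 4.54 in COS and 4.00, 4.17, 4.66 and 3.96 in CES, a difference of -0.77 ± 0.20 (adjusted p = 0.0155). This mean joins opposite readings. The downstream probe gave 5.27, 5.32, 5.51 and 4.93 in COS and 1.65, 3.69, 2.08 and 1.82 in CES, a difference of -2.95, with every CES rat below every COS rat. The upstream probe gave 5.01, 4.67, 4.70 and 4.01 in COS and 4.85, 4.53, 5.53 and 4.79 in CES, a difference of 0.32 with overlapping groups. With the brightest probe in place of the mean, the Col4a1 difference was 0.32 and was not called (adjusted p = 0.274, range 0.00434 to 0.466 over the alternatives), so the fall of the mean rests on the downstream probe. Which of them reads the main transcript was not settled here, and the 112137 bases between them in rn4 exceed the 110886 bases of the gene in GRCr8. The α4 chain, Col4a4, was 0.45 lower in CES and the α5 chain, Col4a5, 0.30 higher, and neither passed the test, although Col4a5 was called higher after loess. Col4a3 was not well above background in any rat.

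**Figure D2:**
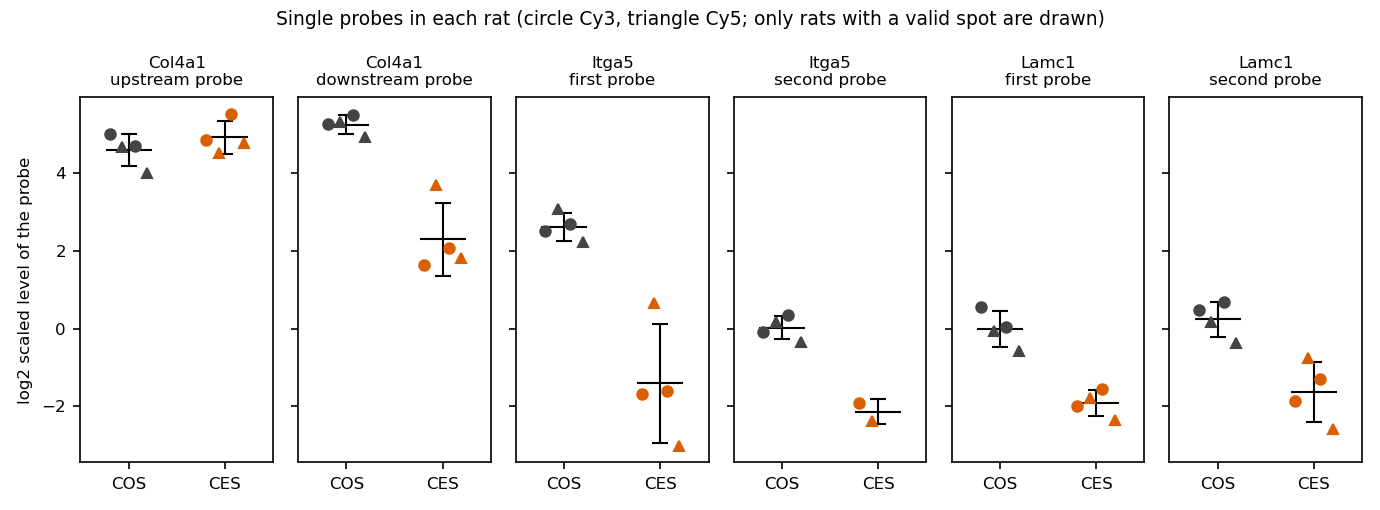
Level (log2 of the scaled signal) of single probes of Col4a1, Itga5 and Lamc1 in each rat with a valid spot, with mean and SD over the rats drawn (n = 4, apart from n = 2 CES rats for the second Itga5 probe). The Col4a1 probes differ, overlapping upstream and separate downstream, while both Lamc1 probes fell alike.

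Collagens XV and XVIII lie where basement membranes meet the tissue around them, and collagen XVIII is the source of the fragment endostatin. The Col18a1 level was 1.74, 1.42, 1.53 and 1.03 in COS and -0.20, 0.89, 0.21 and -0.15 in CES. The groups did not overlap (-1.25 ± 0.27, adjusted p = 0.00847). The Col15a1 level was 0.39, -0.57, 0.07 and -0.68 in COS and -1.80, -0.78, -1.57 and -2.31 in CES (-1.42 ± 0.33, adjusted p = 0.0112). Only CES replicate 2 came close to the COS rats in Col15a1, and the fall was -1.91 within the Cy3 rats and -0.92 within the Cy5 rats. Col15a1 was well above background in 4 COS but 2 CES rats.

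Collagen VII, best known for the anchoring fibrils of skin, had the largest fall among the collagens. Its level was 0.32, 0.36, 0.39 and -0.67 in COS and -1.52, -1.17, -1.42 and -2.70 in CES. The difference was -1.80 ± 0.33 (adjusted p = 0.00519), with no overlap and well above background in all 4 COS but only 2 CES rats. It was -1.83 in the Cy3 and -1.78 in the Cy5 rats.

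Among the fibril-forming collagens, 7 of 10 quantified genes fell and 1 rose, against 28.3% and 5.80% of all genes. After loess limma called 0 of the 10 lower, with 4 at an unadjusted p under 0.05, and 1 higher, and their median relative to all genes was -0.68 before and -0.69 after it. Col1a2 and Col3a1 encode the α2 chain of collagen I and the chain of collagen III, the fibrils of vessel walls and meninges. The Col1a2 level was 3.09, 2.73, 2.24 and 1.89 in COS and 1.47, 1.85, 1.59 and 1.04 in CES (-1.0 ± 0.28, adjusted p = 0.0214). The Col3a1 level was 2.95, 2.91, 2.36 and 1.45 in COS and 0.89, 2.00, 1.46 and 0.93 in CES (-1.10 ± 0.37, adjusted p = 0.0426). COS replicate 4 was at the level of the CES rats in Col3a1, whereas the groups just separated in Col1a2.

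Col1a1, the other chain of collagen I, was 2.62, 2.01, 2.07 and 1.28 in COS and 1.47, 1.81, 1.92 and 1.40 in CES. The groups overlapped and the test was not passed (-0.34 ± 0.24, adjusted p = 0.303). After loess it was 0.04, or -0.04 relative to all genes, against -0.09 before. The chains of 1 fibril thus gave different calls, and the difference between the chains was not tested.

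Collagen V is the minor component that starts collagen I fibrils, and all 3 of its chains fell. The Col5a1 level was 1.31, 1.04, 0.98 and 0.53 in COS and -0.45, 0.39, -0.62 and -1.71 in CES, with no overlap (-1.56 ± 0.38, adjusted p = 0.013). Col5a3 was lower by 0.99 ± 0.21 (adjusted p = 0.00752) and Col5a2 by 0.75 ± 0.18 (adjusted p = 0.0117), both without overlap. The related cartilage-type chains Col11a1 (-1.14 ± 0.28, adjusted p = 0.013) and Col2a1 (-0.87 ± 0.24, adjusted p = 0.0218) were called lower with overlapping groups, and Col2a1 was well above background in only 2 rats of each group. Col27a1 was not called.

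Col11a2, the α2 chain of collagen XI, moved the other way. Its level was 2.80, 2.62, 2.22 and 1.92 in COS and 3.98, 2.36, 3.94 and 3.84 in CES, a difference of 1.14 ± 0.33, 2.21-fold higher (adjusted p = 0.0243). CES replicates 1, 3 and 4 lay above every COS rat and CES replicate 2 among them, and the rise was 1.53 without that rat. It was also called after loess (1.49), where it stood together with Col9a2, a chain of the fibril-associated collagen IX (0.60 ± 0.21 and not called before loess, 0.98 and called after it). Without COS replicate 1, 3 or 4 or without CES replicate 1, Col11a2 was no longer called.

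Of the remaining collagens, Col6a1, a chain of the beaded filaments around cells, was lower by 0.74 ± 0.21 (adjusted p = 0.0227) with no overlap, and its partner Col6a2 by 0.43 ± 0.18 without passing the test. Col16a1, fibril-associated, was lower by 1.11 ± 0.36 (adjusted p = 0.0378). Col8a1 and Col8a2, short-chain collagens of the vessel wall, were 1.10 and 1.24 lower in CES but spread widely among the COS rats (SD 1.03 and 1.48, n = 4) and did not pass. Col9a1, Col10a1, Col20a1 and Col23a1 were not called, and Col20a1 and Col23a1 stood well above background in 0 of 4 COS rats.

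**Figure D3:**
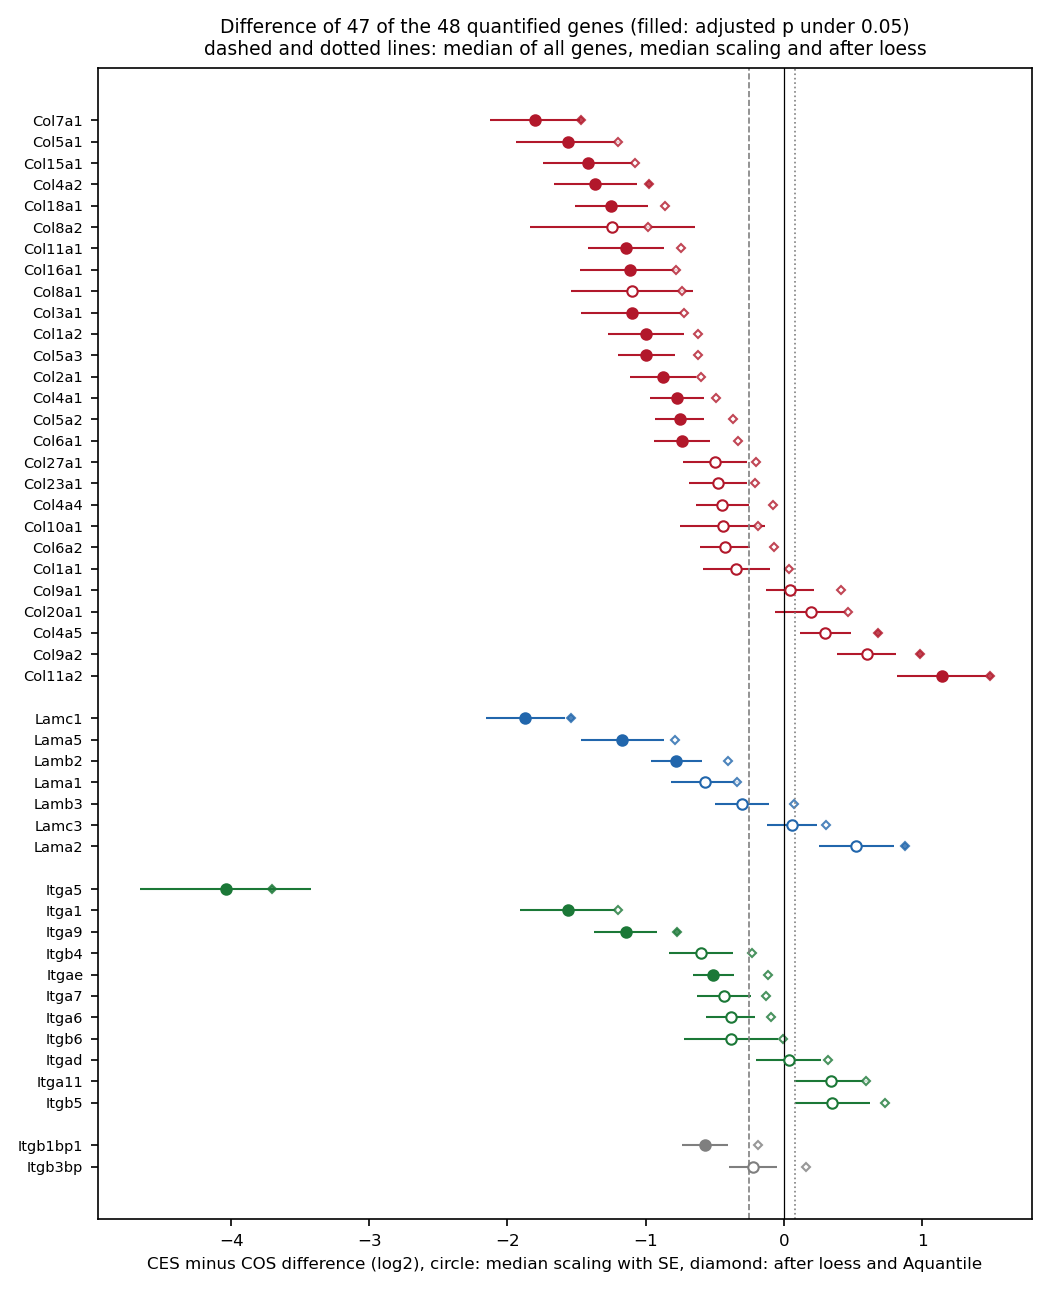
CES minus COS difference (log2, horizontal) of 47 of the 48 quantified genes by family, as circles with SE under median scaling and as diamonds after loess, filled where the adjusted p was under 0.05. The dashed and dotted lines are the median of all genes, -0.25 and 0.08, and most collagens and laminins lie to the left of both lines.

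A laminin is a trimer of an α, a β and a γ chain. The chains α5, β2 and γ1, which form a trimer of vascular basement membranes, all fell in CES. Lamc1 encodes γ1, the chain shared by most laminins. Its level was 0.53, 0.06, 0.39 and -0.47 in COS and -1.92, -1.18, -1.42 and -2.46 in CES. All CES rats were below all COS rats, with a difference of -1.87 ± 0.29 (adjusted p = 0.00397), called after loess too (-1.54). Its probes gave -1.91 and -1.86, and both were well above background in all 4 COS and 2 CES rats.

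The Lama5 level was 0.95, 0.92, 0.90 and 0.16 in COS and -0.27, 0.25, -0.59 and -1.15 in CES (-1.17 ± 0.30, adjusted p = 0.0164). COS replicate 4 and CES replicate 2 overlapped. The Lamb2 level was 2.03, 2.06, 2.04 and 1.55 in COS and 0.99, 1.16, 1.47 and 0.95 in CES, without overlap (-0.78 ± 0.18, adjusted p = 0.012). Neither was called after loess (adjusted p = 0.0853 and 0.0649, with ranges over the alternatives of 0.000517 to 0.316 for Lama5 and 0.00318 to 0.493 for Lamb2).

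Lama2, the α2 chain typical of the astrocyte side of the vessel, was 0.53 ± 0.27 higher in CES and not called (adjusted p = 0.156), and was called after loess (0.88). Lama1 (-0.57), Lamb3 (-0.30) and Lamc3 (0.06) did not pass the test. The 3 probes of Lamb3 differed in sign, from -0.47 to 0.17, and the Lamc3 signal stood well above background in no COS rat. The laminins therefore did not move as 1 group: 4 fell and 4 did not pass, of which Lama2 and Lamc3 lay above 0.

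Itga5, the α5 subunit of the main fibronectin receptor, had the largest difference of the 48 genes. Its level was 2.51, 3.09, 2.70 and 2.23 in COS and -1.68, 0.66, -1.59 and -3.01 in CES, a difference of -4.04 ± 0.62 (adjusted p = 0.004). Every CES rat lay below every COS rat, CES replicate 2 being the nearest, and without it the difference of means was -4.73. It was -4.24 in the Cy3 and -3.84 in the Cy5 rats, and -3.70 after loess. The reading came from 1 probe, at chr7:142254464-142254523, well above background in 4 COS but 2 CES rats. The second probe was valid in 4 COS rats, at -0.08, 0.18, 0.35 and -0.34, and in CES replicates 1 and 2, at -1.91 and -2.36, so it too was lower in CES, while the remaining one was not well above background in any rat. Itga5 stayed called in 20 of 21 alternatives, the exception being the methods' t-test (adjusted p = 0.0904, range 4.56e-06 to 0.0904).

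Itga1, which binds collagens and collagen IV above all, was 3.78, 3.83, 4.45 and 3.84 in COS and 2.73, 3.17, 2.48 and 1.27 in CES. There was no overlap, and the difference was -1.56 ± 0.35 (adjusted p = 0.0103). Itga9, a receptor for tenascin-C and osteopontin, was 0.08, 0.12, 0.53 and -0.30 in COS and -1.15, -0.62, -0.94 and -1.44 in CES, again without overlap (-1.14 ± 0.23, adjusted p = 0.00662). Itgae, known from T cells that bind E-cadherin, was 3.00, 2.59, 2.99 and 2.49 in COS and 2.33, 2.10, 2.52 and 2.07 in CES. Its fall was small and its groups overlapped (-0.51 ± 0.15, adjusted p = 0.0254). Of these 3, only Itga9 was called after loess, and it was well above background in 4 COS but 2 CES rats.

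Itga6, a laminin receptor, was -1.04, -2.06, -1.0 and -2.33 in COS and -1.74, -2.58, -1.15 and -2.50 in CES. The dyes differed more than the groups, and the test was not passed (-0.39 ± 0.18, adjusted p = 0.118). Itgb5, which pairs with αv, was 0.77, 1.18, 0.77 and 0.19 in COS and 0.98, 0.47, 1.56 and 1.31 in CES, overlapping and not called (0.35 ± 0.27, adjusted p = 0.341). Itga7 (-0.43), Itgb4 (-0.60), Itgb6 (-0.38), Itga11 (0.34) and Itgad (0.04) were not called, the last 2 well above background in 0 of 4 COS rats. Thus the 4 subunits that fell were all α subunits, 4 of 8 quantified, against 0 of 3 β subunits and 28.3% of all genes. Few β subunits were read, since Itgb1 and Itgb2 were set aside beforehand and Itgb3, Itgb7 and Itgb8 were not quantified. This contrast between subunits was not tested. Itgb1bp1, which binds the tail of the β1 subunit, was lower by 0.57 ± 0.17 (adjusted p = 0.026) without overlap, and Itgb3bp was not called.

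**Figure D4:**
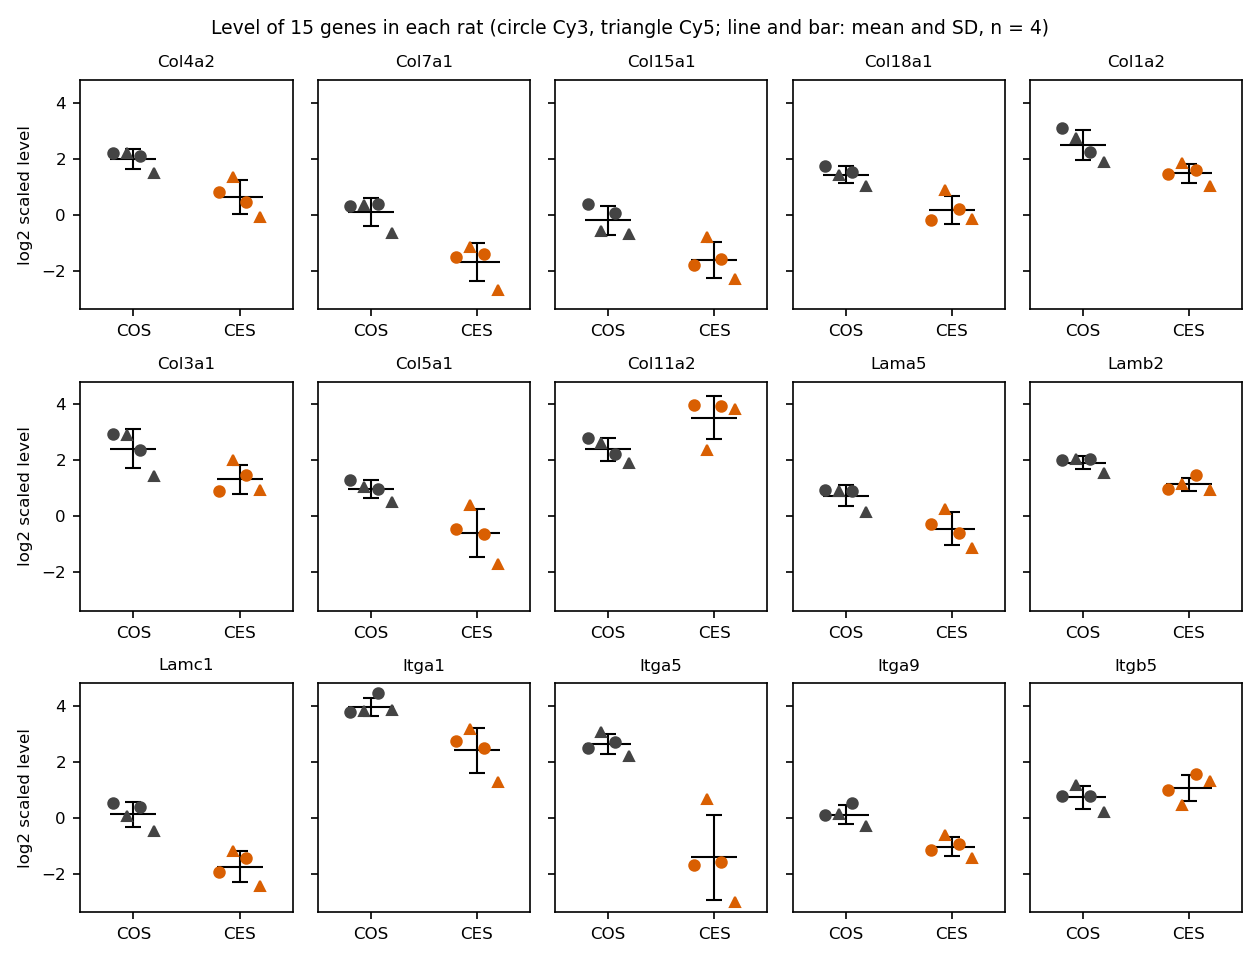
Level (log2 of the scaled signal) of 15 genes in each COS and CES rat, circles for Cy3 and triangles for Cy5, with mean and SD (n = 4). CES lies lower in the panels from Col4a2 to Col5a1 and from Lama5 to Itga9, higher in 3 of 4 rats for Col11a2, and overlaps COS for Itgb5.

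The partners of these genes were described through 3 lists written from general knowledge of matrix and adhesion biology. Earlier results of these data were known when the lists were chosen, so the counts describe the lists and do not test them. Of 20 quantified matrix and basement membrane partners, 13 were called lower and 2 higher, with a median of -0.91 (-0.65 relative to all genes), against 28.3% and 5.80% of all genes called. The largest falls were in Spp1 (osteopontin, -5.46 ± 1.41, adjusted p = 0.0169), Tnc (tenascin-C, -2.72 ± 0.41, adjusted p = 0.0039) and Fbln2 (fibulin-2, -2.48 ± 0.57, adjusted p = 0.0112). Spp1 and Tnc encode ligands of α9 and other integrins. In Spp1, CES replicate 2 was at 6.39, within the COS range of 5.76 to 8.73, whereas the other CES rats lay between -1.45 and 1.16. The genes called higher, named after their values were seen, were Vtn (vitronectin, 1.08 ± 0.19) and Dcn (decorin, 0.93 ± 0.29). After loess, 4 of the 20 were called lower and 3 higher, against 8.64% and 14.8% of all genes.

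Of 17 genes of collagen synthesis and crosslinking, 10 were called lower and 0 higher, against 28.3% and 5.80% of all genes. Their median was -1.09, or -0.84 relative to all genes. Lox, which crosslinks collagen, had the largest fall (-3.15 ± 0.80, adjusted p = 0.016), with CES replicate 2 at 2.27 within the COS rats. Loxl2 (-1.97 ± 0.32, adjusted p = 0.00419) and Plod3, a lysyl hydroxylase (-1.95 ± 0.32, adjusted p = 0.00438), fell without overlap. After loess 5 of the 17 were called lower and 0 higher, against 8.64% and 14.8% of all genes.

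Of 19 adaptors and kinases of integrin adhesions, 14 were called lower and 1, Ptk2b, higher (0.67 ± 0.20, adjusted p = 0.0272). The shares of all genes were 28.3% lower and 5.80% higher. The list median was -1.30, or -1.05 relative to all genes. The largest falls were in Flna, filamin A (-2.57 ± 0.52, adjusted p = 0.0069), Fermt3, kindlin-3 (-1.99 ± 0.37, adjusted p = 0.00549), and Actn1, α-actinin (-1.79 ± 0.24, adjusted p = 0.0037). After loess 11 of the 19 were called lower and 2 higher, against 8.64% and 14.8% of all genes. Without COS replicate 3, the called genes fell to 1 lower of the matrix partners, 2 of the synthesis genes and 6 of the adhesion genes. The lower calls over all 21332 genes then fell to 914.

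The DG holds several cell types that make matrix, and in RNA of whole tissue fewer cells of a type and less RNA per cell cannot be told apart. Endothelial markers were called lower for 5 of 9 quantified genes, with a summed linear level of 51.8 to 80.1 in COS and 22.1 to 52.7 in CES. Markers of pericytes and vascular smooth muscle were called lower for 5 of 8 and higher for 1, with sums of 59.1 to 97.5 in COS and 21.8 to 42.2 in CES. These counts stand against 28.3% of all genes called lower and 5.80% higher. After loess, 2 endothelial markers and 2 of pericytes and smooth muscle were called lower, and 1 of the latter was called higher. The shares of all genes after loess were 8.64% lower and 14.8% higher. Without COS replicate 3 limma called 0 endothelial markers lower, with 6 at an unadjusted p under 0.05, and 1 of the pericyte and smooth muscle markers. The smooth muscle gene Tagln fell by 2.59 ± 0.46, whereas Rgs5, of the same list, rose by 0.79 ± 0.17 without overlap. Tagln had the highest level of that list in every COS rat, so the COS sums rest largely on it. Of the endothelial markers, Vwf fell by 2.01 ± 0.47, whereas Cldn5, a defining gene of brain endothelium, was -0.25 ± 0.17 and not called. The part of these cells in the results was not tested.

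Fibroblast and meningeal markers, of which Dcn and Lum are also among the matrix partners, were called lower for 1 of 10 and higher for 1, with sums of 82.7 to 289 in COS and 90.2 to 160 in CES that overlapped. Choroid plexus markers were called for 0 of 7, also at an unadjusted p under 0.05, and their sums ran from 13.9 to 641 in COS and 17.5 to 205 in CES, overlapping and spread most widely among the COS rats. Microglial markers were called lower for 3 of 7 and higher for 1 (sums 33.9 to 51.4 and 25.3 to 35.5), with Tmem119 well above background in 0 of 4 COS rats. Of the microglial markers, 1 was called lower and 1 higher after loess, against 8.64% and 14.8% of all genes. Without COS replicate 3, 0 microglial markers were called, with 3 lower and 1 higher at an unadjusted p under 0.05. Astrocyte markers were called higher for 2 of 6 and oligodendrocyte markers for 0 of 6, with overlapping sums. Of the granule cell markers, 5 of 6 were quantified, 2 called lower and 1 higher, Prox1 having no spot valid in all rats, and of 4 markers of other hippocampal fields 3 were called higher and 1 lower. The counts before loess in these lists stand against 28.3% of all genes called lower and 5.80% higher. The part of each cell type in the results was not tested.

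**Figure D5:**
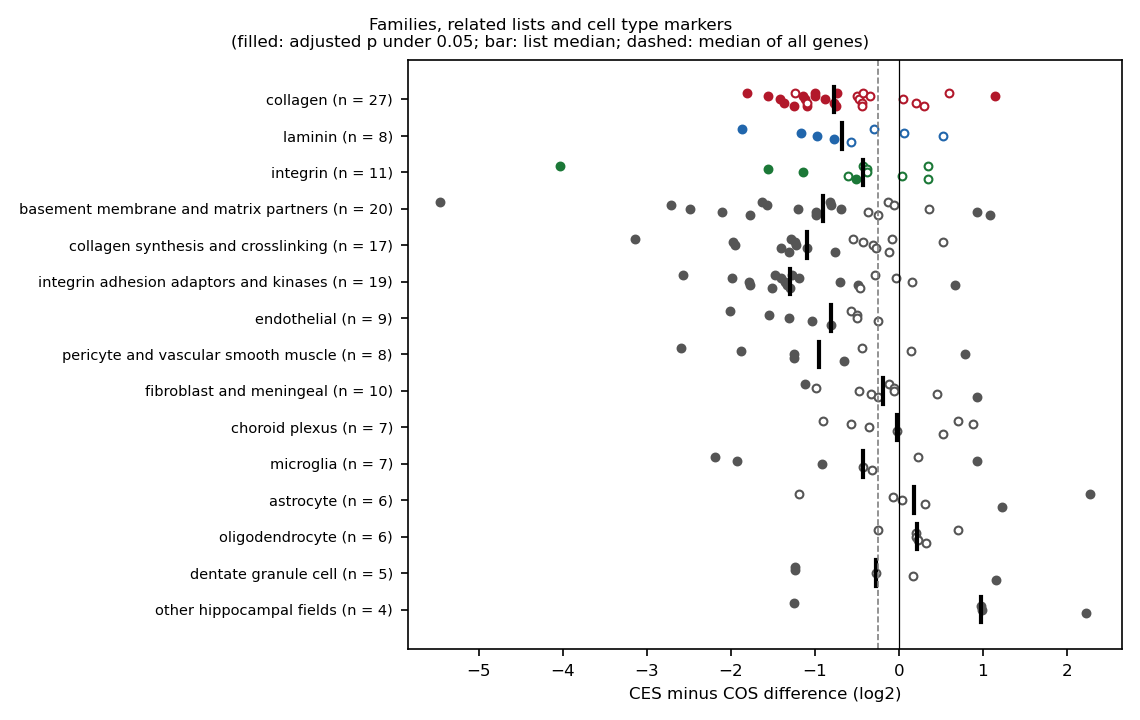
CES minus COS difference (log2) of each quantified gene of the 3 families, of the 3 related lists and of the cell type markers, filled where the adjusted p was under 0.05, with the median of each list as a bar. Medians of the adhesion, synthesis, matrix and vascular lists lie left of the dashed line at -0.25, and those of astrocyte and oligodendrocyte markers lie right of 0.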

How the data were processed

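Gene expression in the DG of 8 OVX rats after SE, 4 COS and 4 CES, was measured on 4 two-color arrays, in which each channel is 1 rat. The deposited scanner files hold, per spot and channel, the mean and median foreground intensity and the local background intensity, extracted by the authors with Agilent Feature Extraction 10.7.3.1 and not normalized, and a processed intensity from the same software. A further table of log2 values deposited by the authors was found to hold, in each channel, log2 of the median intensity less its background median, plus 1 constant.

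The background median was subtracted from the mean foreground and divided by the median over valid spots of the channel. Spots valid in all 8 rats (27642 of 43379) were averaged by gene name and taken to log2. The percentage of valid spots ran from 74.6 to 88.9 in COS and from 70.7 to 81.5 in CES, and 0 spots were saturated. The median SE of a difference was 0.20, and with 4 rats per group the number of arrays limits the precision.

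The CES and COS rats were compared in limma 3.58.1 (R 4.3.3, statmod 1.5.0). The model held the dye, and arrays entered as random blocks (duplicateCorrelation). P-values were adjusted by Benjamini-Hochberg over 21332 genes, with a threshold of 0.05. Since no array held both groups, array and group cannot be told apart. The fit was tested on simulated data of this layout, with independent noise in each rat. No array effect was simulated, so the simulation could not show false calls that come from the arrays. Deviations of same-numbered rats from their group means correlated by 0.21 to 0.34, but the number goes with the dye. With the dye removed the correlations ran from -0.28 to 0.08. Removing group and dye lowers such correlations by itself, so these values cannot exclude a pairing. The main fit took the numbers to mark the dye and not a pair, and a replicate block was run as an alternative.

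Values are given in all rats for the 5 largest called differences of each family and for core chains and subunits (Col4a1, Col4a2, Col1a1, Col1a2, Col3a1, Lama5, Lamb2, Lamc1, Itga5, Itga6 and Itgb5), with the difference, SE and adjusted p for every called gene but 1, which is counted but not reported here, and for the 3 largest called differences of each related list. Values of Col11a2 and of single probes were added after they were seen. The genes and lists were chosen with earlier results of these data known. Probe sequences and rn4 positions are those in the files, promoters are RefSeq's (GRCr8), and of the 101 spots 60 had an accession in the RefSeq table, all with the same symbol. Alternatives covered background correction, normalization, filters on dim spots, the array block, the dye term, the replicate block, probe and name choice, the methods' t-test, the log2 table of the authors, and the omission of single rats. Tables and plots were made in Python 3.11.15 with pandas 2.3.3 and matplotlib 3.10.9.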

Additional observations from a re-analysis of the deposited data

Results flagged for a closer look

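In 54 groups of 4 rats (27 genes in COS and CES), 6 levels stood apart from the other 3 rats of their group by more than Dixon's critical value allows, a mark that chance reaches in about 1 of 20 groups. In COS replicate 4, Col7a1 was at -0.67 (others 0.32 to 0.39), Lama5 at 0.16 (others 0.90 to 0.95) and Lamb2 at 1.55 (others 2.03 to 2.06). The median of all genes was also lowest among the COS rats in replicate 4, at 0.61. It was 1.17, 0.88 and 1.30 in COS replicates 1 to 3. These levels were not taken relative to that median, and whether they stand apart from it was not tested. In CES replicate 2, Col11a1 was at 0.47 (others -0.66 to -0.54) and Col11a2 at 2.36 (others 3.84 to 3.98). In COS replicate 3, Itga1 was at 4.45 (others 3.78 to 3.84). The readings of COS replicate 4 and CES replicate 2 lie toward the other group, and that of COS replicate 3 away from it.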

How the results depend on the processing

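The median difference of the 48 genes relative to all genes, -0.33, stayed below 0 under every alternative run, between -0.50 and -0.23, and between -0.45 and -0.32 with 1 rat left out, whereas the counts of calls depended on the processing. Against 23 genes called lower and 1 higher, there were 1 and 0 with normexp, 5 and 4 with loess and Aquantile, with quantile normalization and with scaling over spots valid in all rats, 6 and 4 (of 47) with the deposited log2 table, 8 and 0 (of 61) without a filter on valid spots, and 9 and 1 (of 33) with a foreground at least 3 times background. The processed signal gave 22 and 0, spots well above background in all rats 17 and 2 (of 27), and no dye term 26 and 2. The methods' t-test, with Benjamini-Hochberg adjustment, called 0 and 0, with 20 of the 48 at an unadjusted p under 0.05 (limma had 32). The replicate block gave 25 and 1, and of the related lists it moved 3 counts by over 1.5 times, to 8 endothelial genes lower, 1 matrix partner higher and 0 fibroblast and meningeal genes higher. Leaving out 1 rat gave 2 (without COS replicate 3) to 26 genes called lower, and 0 to 3 called higher. The calls over the whole array moved as well. Of all 21332 genes, the main fit called 6038 lower and 1238 higher, and the methods' t-test 0 and 0. Normexp called 461 and 125 of them, loess and Aquantile 1843 and 3157, and quantile normalization 2221 and 3055. Scaling over spots valid in all rats called 1718 and 3348. A foreground at least 3 times background called 2828 and 1272 of 16757. Of the 48 genes 38 lay below 0, against 35 after loess and 33 with scaling over spots valid in all rats, and 37 lay below the median of all genes under each of these. Among the called genes and the core chains and subunits, signs turned for Col1a1 (0.0386 after loess, 0.0295 after quantile normalization, 0.0569 with scaling over spots valid in all rats, 0.0506 in the deposited table) and Itga6 (0.0143 with scaling over spots valid in all rats, 0.0039 in the deposited table), and for Col4a1 (0.32) with its brightest probe. Lamb3 (0.07) and Itgb3bp (0.16) turned after loess too. The cause was not tested. Of the 48 genes, 27 were well above background in all 8 rats, and signal over background limits the values of the rest.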
